A study of Oryza sativa Indica Group with 24 samples.

Results

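The 100 cDNA clones described here had less signal in leaves of drought-stressed rice than in leaves of well-watered rice at the earliest sampling, 45 days after germination, and, by the way they were chosen, a mean over the 3 stress levels that was larger in size that day than on days 52 to 71. They were chosen from the 7296 clones of a spotted array by values measured on these arrays. M is the log2 ratio of stress over control intensity minus the median of that ratio over the clones of an array, averaged over the duplicate spots of a clone. Clones were ranked by brightness, the 150 brightest were left out and the next 3498 were kept. Of these, 193 had M below 0 at all 3 stress levels of day 45 and their largest 3-level mean of days 45 to 71, in size, on that day. The list holds the 100 of them with the highest minimum size of M over the 3 levels of day 45. Since the values of days 45 to 71 chose the list, M on day 45 and the 3-level means of days 52 to 71 are given as a description and carry no test. No file used here links a clone to a gene, and a search of 39387 rice genes (RefSeq, Japonica Group, assembly ASM3414082v1) for the clone names gave 0 matches, so each clone is given by its printed name and no pathway or cell type marker could be examined.

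The plants were Oryza sativa, Indica Group, of the cultivar Nagina 22 (N22). Stressed plants grew in field plots held at 60% (mild), 40% (moderate) or 15% (severe) of field capacity, and control plants of the same age grew at 100%. There was 1 array for each level on days 45, 52, 55, 59, 63, 67, 71 and 75 after germination, when stress had lasted from 7 to 37 days. Stress RNA always carried one Alexa dye and control RNA the other, so a dye effect common to all arrays stays in every M and cancels in differences between levels. Leaves of a plot were pooled, and the extraction protocol names panicles as well. Each level had 1 plot code throughout, and the 3 levels of a day share the control plot and may share its RNA, so the 3 arrays of day 45 are not independent replicates. In these pooled leaves, fewer cells of a type and less RNA per cell cannot be told apart.

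Rice is a crop of wet soils, and its leaves respond to a drying soil by closing stomata, through the hormone abscisic acid, and by lowering photosynthesis and growth. Transcripts for chloroplast proteins, for carbon fixation and for the translation machinery are commonly reduced in stressed leaves, while protective proteins such as dehydrins accumulate. N22 is a cultivar used as a source of tolerance to drought and heat. The labels place days 45 and 52 in the vegetative phase, so the list concerns leaves of plants that had not yet flowered.

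Ratios of 23 arrays were used. Days 45, 52 and 55 were quantified in one session and days 59 to 71 in another, so age and session cannot be told apart between these spans. Among the 253 pairs of arrays, 30 had a Pearson correlation of M over all clones below -0.3, the lowest being -0.51 (mild day 59 with severe day 67). All 30 involved an array of day 59 or 63, and 1 involved an array of day 45. Since the labels name the dye of each channel, and ages can move in opposite directions, no sign was turned. In the authors' deposited table of log2 values, 21 of 23 columns matched their own array best (correlation 0.84 to 0.99), but under moderate stress the columns of days 52 and 55 fitted the other day's scanner values (0.93 and 0.89, against 0.06 and 0.09 with their own). Values of these 2 days are therefore also given with the moderate arrays exchanged; 98 of the 100 clones would have been chosen either way. The number of arrays limits the precision of every value.

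On day 45 the list lay lowest under mild stress with each array centred on its median. Over the 100 clones, M ran from -1.83 to -0.37 with a median of -1.08 on the mild array. On the moderate array it ran from -1.76 to -0.35 with a median of -0.57, and on the severe array from -2.61 to -0.38 with a median of -0.68. The 3398 other clones of the same brightness ranks had medians of -0.03, -0.21 and -0.15 on the mild, moderate and severe arrays. A signal lower by 2-fold or more (M of -1 or less) was seen for 57, 10 and 23 clones of the list on the mild, moderate and severe arrays, against 11.2%, 3.52% and 5.92% of all clones. These counts follow from the choice of the list, as does the number below 0 on all 3 arrays (100 clones, against 24.4% of all clones). The mild array gave the lowest M for 78 clones of the list (37.3% of all clones), the moderate array for 4 (35.0%) and the severe array for 18 (27.8%). This order of levels comes from values that chose the list and depends on the processing: with block medians subtracted, or with print-tip loess, the list was reduced least under mild stress. Averaged over the 3 levels, the ratio of stress over control was 1.38-fold to 3.22-fold below the array median, with a median of 1.74-fold. It was 2-fold or more below for 28 clones, a count that also follows from the choice. Measured stress intensity was often near that of empty spots. The SD over the 3 levels had a median of 0.28 and ran from 0.03 to 0.96.

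**Figure D1:**
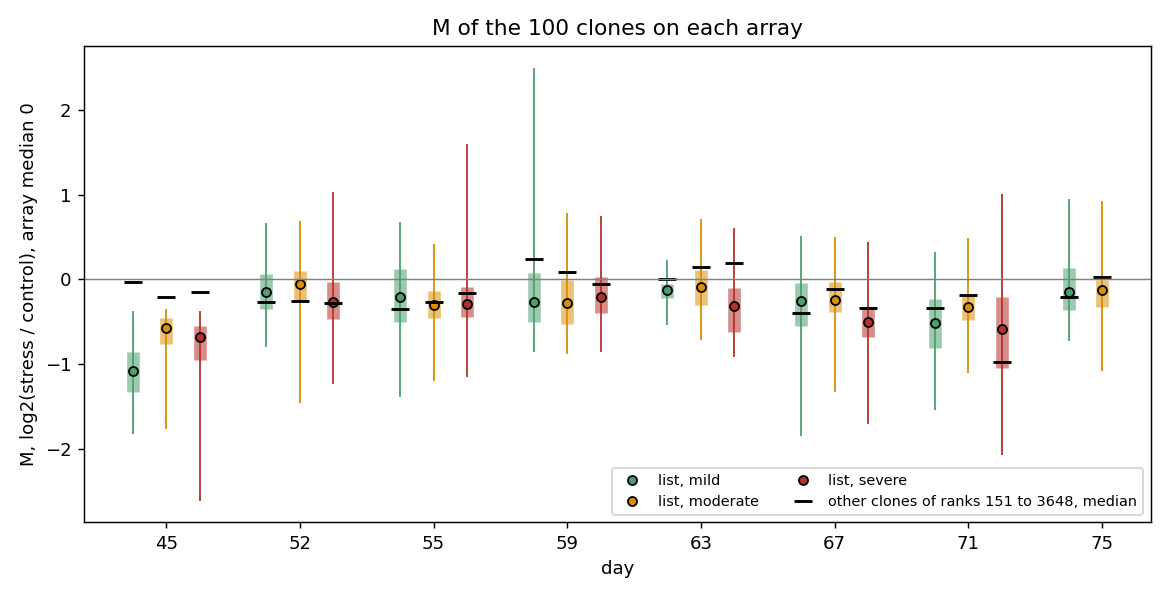
M of the 100 clones on each of 23 arrays, by day (x axis) and stress level (colour). Points are medians, thick bars the middle 50% of clones, thin lines the full range, and black dashes the median of the other kept clones. On day 45 the medians of the list are -1.08, -0.57 and -0.68, below the dashes at -0.03, -0.21 and -0.15. On the severe array of day 71 the point (-0.58) lies above its dash (-0.98).

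NL_3_50 headed the list. Its stress and control intensities on day 45 were 152199 and 277556 (mild), 1656 and 5400 (moderate), and 3757 and 10878 (severe; the mild array was deposited as sums over 80 pixels). M was -1.18, -1.32 and -1.39, a mean of -1.29 ± 0.11 (SD, n = 3). All 3 levels were thus close together, although the stress signal on the moderate array did not exceed the 95th percentile of the array's empty spots. MK_PG3_C09 was next, with M of -1.25, -1.18 and -1.14 under mild, moderate and severe stress, and NL_3_83 followed with -1.27, -1.12 and -1.37. The spread over levels was smaller than the reduction for each of these 3 clones.

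Among the next clones, NL_3_63 had M of -1.42, -1.11 and -1.06 under mild, moderate and severe stress, and NL_8_65 had -1.11, -1.02 and -1.67. NL_8_65 thus stood lowest under severe stress and NL_3_63 under mild. NL40_F05, at -1.03, -1.08 and -1.02, had one of the smallest ranges over levels (0.07), with MK_PG3_C09 (0.10) and NL52_C11 (0.05; M of -0.51, -0.46 and -0.47). The remaining clones of the first 15 were NL_3_67, NL_16_17, NL_12_83, NL_3_69, NL_16_82, NL_3_44, NL_3_53, NL_3_68 and NL_16_51. Names that start with NL_3 thus made up 8 of the first 15 clones.

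The clones with the largest ranges over levels were lowest under severe stress. NL_9_75, the brightest clone of the list (rank 225), had M of -0.69 (mild), -1.76 (moderate) and -2.61 (severe), a range of 1.92 and the lowest 3-level mean of the list, -1.69 ± 0.96 (SD, n = 3). NL_15_42 (rank 606) ran the same way, at -0.37, -0.87 and -1.95. NL_15_13 had -0.95, -0.72 and -2.12, so its severe value alone stood apart. These 3 clones were printed in print column 4, away from most of the list. At the edge of the list, NL48_H05, NL_8_66 and NL52_G09 were just inside, with minimum sizes of 0.354, 0.351 and 0.351, and NL_16_90, NL_8_72 and NL_8_7 just outside, with 0.351, 0.350 and 0.350. The edge is therefore arbitrary.

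**Figure D2:**
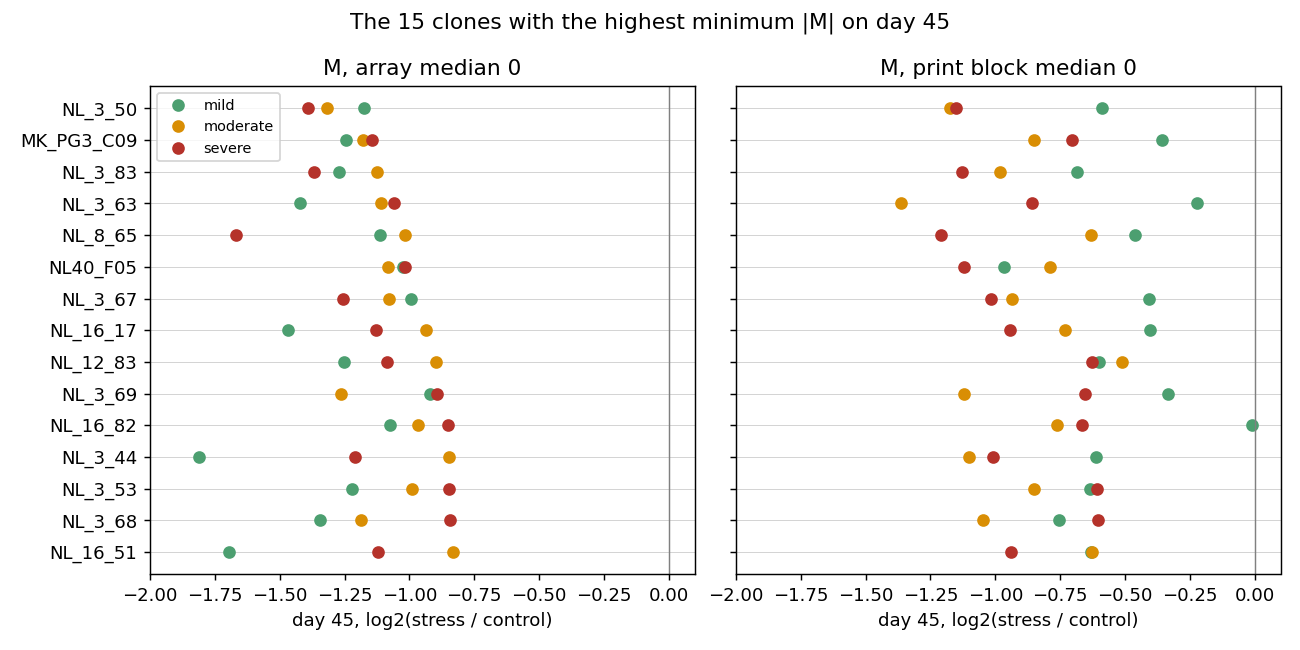
M on day 45 of the 15 clones with the highest minimum size of M, as chosen (left) and after the median of all clones of the print block was subtracted on each array (right). Colours mark the stress levels; NL_3_50 stands at -1.18, -1.32 and -1.39 on the left and at -0.59, -1.18 and -1.15 on the right under mild, moderate and severe stress.

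On day 45 the list ranked lower in the stress channel than in the control channel, which largely follows from its choice by M on these arrays. These ranks do not tell a low stress signal from a high control signal. Over the list, the median percentile of intensity among all clones was 38.1 in the stress channel and 75.9 in the control channel on the mild array, 61.3 and 73.5 on the moderate array, and 59.7 and 74.2 on the severe array. The clones were of middling brightness, with ranks from 225 to 3585 and a median of 2123. Their median intensity was 2.16 times (stress) and 3.79 times (control) that of the 816 empty spots on the mild array, 1.58 and 2.83 times on the moderate array, and 2.83 and 5.90 times on the severe array. Signals above the 95th percentile of empty spots were found for 50, 2 and 22 clones on the mild, moderate and severe arrays in the stress channel, and for 71, 11 and 82 in the control channel. Of all clones, 62.3%, 12.7% and 27.9% passed this level in the stress channel, and 32.0%, 14.9% and 37.5% in the control channel. On the moderate array 98 clones of the list exceeded the median of the empty spots in the stress channel, and 2 their 95th percentile. Duplicate spots differed by a median of 0.11, 0.09 and 0.11 in M on the 3 arrays, less than the reductions, and no clone of the list had a spot marked to be ignored or saturated on day 45.

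The list was unevenly placed on the array, which is printed in 48 blocks (12 rows of 4 columns). Its 100 clones came from 14 blocks, and 66 came from print column 1 of rows 8, 9 and 10 (28, 18 and 20 clones of the 131, 107 and 68 kept there). Clones with NL_ names made up 80 of the list but 894 of the 3498 kept clones, NL names made up 15 of the list and 2353 of the kept, and MK names 5 and 251. Of the 40 kept NL_16 clones 16 were listed, and of the 67 kept NL_3 clones 14. No clone came from print rows 1 to 5.

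Whole blocks moved on day 45. The median M of all clones of a block ran from -1.26 to 1.01 on the mild array, from -0.45 to 0.42 on the moderate array and from -1.22 to 0.39 on the severe array. In row 8, column 1 the listed clones had medians of -0.92, -0.46 and -0.56 under mild, moderate and severe stress, and the other kept clones of that block had -0.71, -0.38 and -0.46. In row 10, column 1 the listed clones had -1.31, -0.68 and -0.80, and the others -1.27, -0.52 and -0.53. In row 10, column 4 the 10 listed clones had -1.47, -0.70 and -0.73, and the others -1.36, -0.05 and -0.34. Neighbours in print that are not on the list were thus nearly as low in some blocks and on some arrays, but not on all. Around NL_9_75 (row 8, column 4) the other kept clones of the block had medians of -0.01, 0.23 and -0.54, above that clone on all 3 arrays.

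The local background differed as well. On the mild array of day 45 the median log2 ratio of stress over control background was 0.59 around the listed clones and 3.94 around the other kept clones. On the moderate array these medians were -1.88 and -0.88, and on the severe array -0.53 and 0.10. As a share of signal, background around the listed clones had medians of 0.97% (control) and 2.44% (stress) on the mild array. On the moderate array these were 6.18% and 2.58%, and on the severe array 7.99% and 10.2%. The other kept clones had 0.63% and 8.43%, 3.80% and 2.39%, and 2.57% and 4.05%. With background subtracted, 88 clones of the list would have been chosen. The part of print position and background in the reduction was not tested, and the values with the block taken into account follow.

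**Figure D3:**
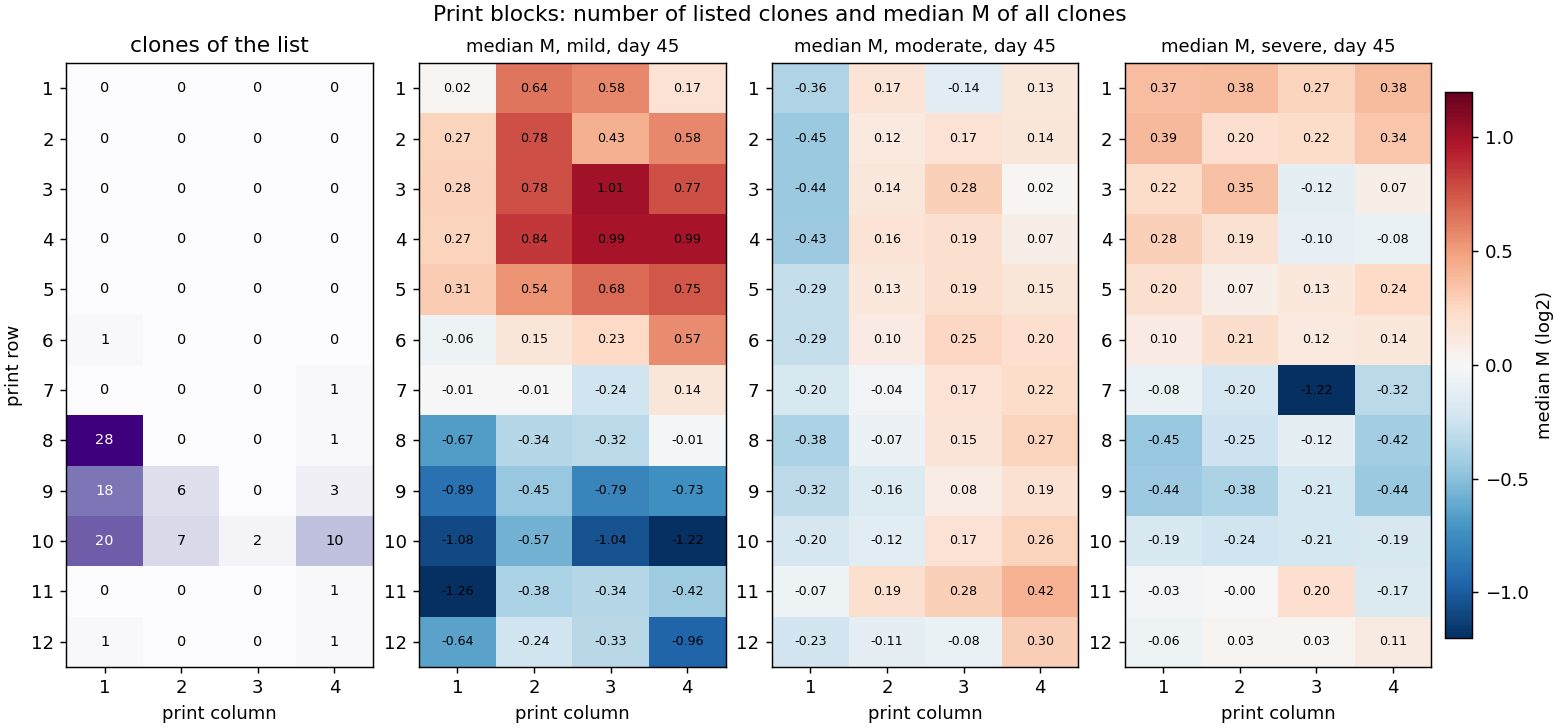
Number of listed clones in each of the 48 print blocks (left) and the median M of all clones of each block on the mild, moderate and severe arrays of day 45 (colour and numbers, log2). The 66 clones of column 1, rows 8 to 10, lie where the block medians are below 0 on all 3 arrays.

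After the block median was subtracted on each array, an alternative chosen after seeing the data, the list remained lower but by less. The medians on day 45 were -0.29, -0.37 and -0.34 under mild, moderate and severe stress, with 78, 95 and 90 clones below 0. On all 3 arrays 65 clones lay below 0, against 23.8% of all clones. The same arrays chose the list, so this excess and those given next follow in part from the choice. With normexp background correction and loess the 3-level means kept a median of -0.85 and 100 clones lay below 0 on all 3 arrays (21.8% of all clones). With print-tip loess, which fits each block on its own, the medians were -0.05, -0.20 and -0.22, with 58, 79 and 76 clones below 0, and 40 clones lay below 0 on all 3 arrays (19.7% of all clones). The size of the reduction on day 45, and its direction for part of the list, thus depended on how print blocks were treated.

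The clones that stood lowest within their own block were few. Block-centred M was -0.5 or less on all 3 arrays for 13 clones: MK_PG6_E12, NL_7_25, NL40_F05, NL_3_83, NL_9_75, NL_16_51, NL_3_44, NL_3_53, NL_3_68, NL_3_50, NL_16_70, NL_17_26 and NL_12_83. The share of all clones that reach this threshold was not counted, and M on these arrays chose the list. MK_PG6_E12, NL_7_25, NL_16_70 and NL_17_26 are named here after their values were seen. MK_PG6_E12 stood at -1.40, -0.90 and -1.06 relative to its block under mild, moderate and severe stress, and NL_9_75 at -0.68, -2.04 and -2.18. Both thus lay below the median of their block at every level. By 3-level mean, 14 clones of the list were among the lowest 10% of the kept clones of their own block and 36 among the lowest 25%.

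**Figure D4:**
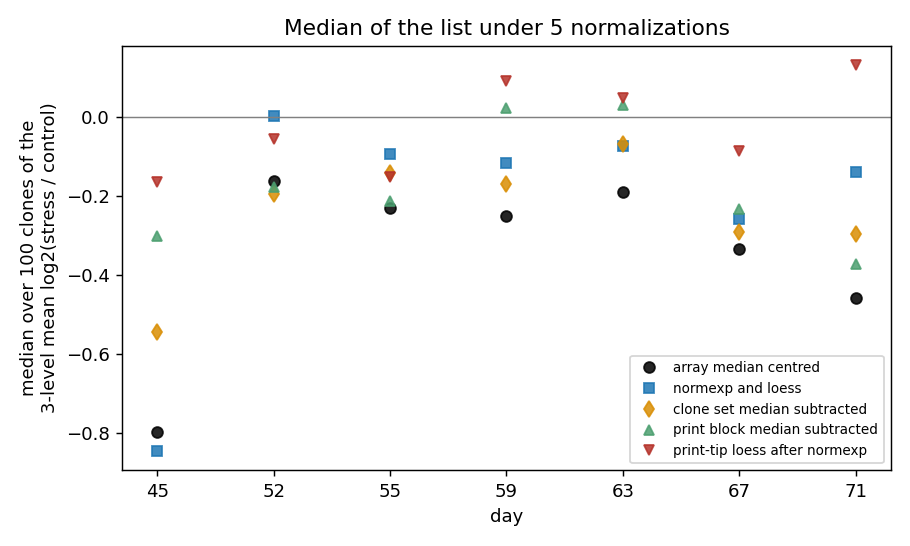
Median over the 100 clones of the 3-level mean log2 ratio of stress over control on days 45 to 71 (x axis), under 5 normalizations (symbols). On day 45 the array-centred median is -0.80 and those with the print block taken into account are -0.30 and -0.17, and on days 59 and 63 these last 2 lie above 0 (0.022 and 0.030, 0.091 and 0.048).

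From day 52 to day 71 the list lay nearer to 0, which follows from its choice. On days 52, 55, 59, 63, 67 and 71 the median of the 3-level mean was -0.16, -0.23, -0.25, -0.19, -0.33 and -0.46, against -0.80 on day 45. With the moderate arrays exchanged it was -0.23 on day 52 and -0.21 on day 55. The number of clones below 0 at all 3 levels was 32, 55, 56, 46, 59 and 69 on these 6 days, against 24.0%, 27.5%, 25.6%, 19.6%, 26.4% and 30.9% of all clones. Among the other clones of the same brightness the shares were 42.6%, 48.9%, 26.5%, 16.2%, 44.2% and 53.4%. The list thus exceeded them on days 55, 59, 63, 67 and 71 and fell short of them on day 52. With block medians subtracted, the median of the list was 0.02 on day 59 and 0.03 on day 63. Print-tip loess gave 0.09, 0.05 and 0.13 for days 59, 63 and 71, and normexp with loess gave 0.0024 for day 52, so the direction on these 4 days depended on the processing.

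Reductions of 2-fold or more were counted on each later array. On days 52 to 71 the rule kept each 3-level mean smaller in size than on day 45. Low counts on these days thus follow in part from the choice of the list. On the mild, moderate and severe arrays of day 52 they were seen for 0, 2 and 3 clones of the list, against 9.87%, 6.44% and 7.25% of all clones. Day 55 gave 1, 1 and 4 clones (9.57%, 7.03% and 7.21% of all). The list had none on the arrays of days 59 (0.932%, 0.521% and 0.863% of all) and 63 (0.11%, 0.0685% and 4.37%). On day 67 there were 2, 2 and 11 clones (10.3%, 2.25% and 12% of all), and on day 71 there were 14, 1 and 27 (13%, 8.9% and 26.4%). The counts of day 71 under mild and severe stress are close to the shares of all clones, and the severe one exceeds that of day 45 (23 clones). On day 75 the mild array had 0 clones (4.5% of all) and the moderate array 1 (2.13%).

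Over the 18 arrays of these days, a clone of the list lay below 0 on 8 to 18 arrays, with a median of 14. For 46 clones it was 15 or more, against 5.25% of all clones and 9.33% of the other kept clones. With block medians subtracted the number was 16 clones (6.00% of all), with normexp and loess 8 (4.16%) and with print-tip loess 1 (3.41%). Only NL_14_83 lay below 0 on all 18 arrays with array centring, with a lowest value of -0.79 (mild, day 71) and a highest of -0.04 (mild, day 55). It is named after its values were seen.

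The 5 clones with the most negative mean over these days were NL_9_75 (-0.52), NL_12_83 (-0.52), NL_3_50 (-0.51), NL40_F05 (-0.47) and NL_8_65 (-0.47). NL_9_75 was low again on day 67, with -1.84 (mild), -1.16 (moderate) and -0.95 (severe), and on day 71, with -0.57, -0.81 and -1.80. It lay above 0 at every level of day 59 (0.84, 0.20 and 0.30). NL_8_65 lay below 0 on 17 of the 18 arrays, the exception being the moderate array of day 71 (0.26). NL40_F05 was low on day 52 under moderate and severe stress (-1.46 and -1.24) and at 0.00 under mild stress.

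Some clones turned to the opposite side. NL_15_13 had M of 0.89, 0.73 and 0.59 under mild, moderate and severe stress on day 59, the highest 3-level mean of the list on any of these days, and was back at -0.72, -1.33 and -1.70 on day 67. NL_8_20 had 1.21, 0.15 and 0.74 on day 59. NL_12_54 reached a mean of 0.62 on day 55, which came mainly from the severe array (1.59, with 0.34 under mild and -0.07 under moderate stress). NL_15_8 (0.50) and MK_PG6_B02 (0.49) had their highest means on day 59 as well, so that 4 of these 5 clones peaked on that day. NL_16_53, named after its values were seen, had the highest single value of the list, 2.50 on the mild array of day 59, beside -0.49 (moderate) and -0.80 (severe). For 31 of the 100 clones day 59 gave the highest 3-level mean of days 52 to 71, and the share of all clones was not counted. The other kept clones had medians of 0.24, 0.08 and -0.06 on the mild, moderate and severe arrays of day 59. All 30 array pairs that correlated below -0.3 over all clones involved an array of day 59 or 63. Day 59 was also quantified in another session than day 45. Whether the turn is particular to the named clones was not tested.

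The listed NL_3 clones resembled each other after day 45, as did other clones of a print block that holds part of them. Over the 18 later arrays the median correlation between pairs was 0.58 among the 14 of them, 0.40 among the 20 clones of neither group, 0.15 among the 66 clones of print column 1 and 0.20 among all clones of the kept ranks. Among the 6 NL_3 clones listed in print row 10, column 2 the median was 0.58, with pairs from 0.33 to 0.96. Among the 8 of column 4 it was 0.68. Of those 6, NL_3_50, NL_3_67, NL_3_68 and NL_3_69, a subset picked by no fixed rule, correlated at 0.87 to 0.96. All 4 share print row 10, column 2. The other kept clones of that block correlated at a median of 0.75, above that of the 6, with pairs from -0.43 to 0.995. Block and name cannot be told apart here. On the severe array of day 71 these 4 clones stood at -1.40, -1.37, -1.66 and -1.56. On that array the kept NL_3 clones of the block had a median of -1.61, and its kept clones with other names had -1.28. Clones may hold copies of the same transcript, which the names do not show.

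Day 75 had no part in the choice of the list and allowed a test, with the mild and moderate arrays as 2 samples. M over the list had a median of -0.15 on the mild array (from -0.73 to 0.95, 61 clones below 0) and -0.13 on the moderate array (from -1.08 to 0.92, 75 below 0). On the moderate array the median was -0.0018 with block medians subtracted (52 clones below 0) and -0.10 with print-tip loess (63 below 0). The other kept clones had medians of -0.21 (mild, 70.7% below 0) and 0.03 (moderate, 45.9% below 0), so on the mild array the list lay above them. Both arrays were below 0 for 46 clones of the list, against 24.9% of all clones and 34.0% of the other kept clones, and above 0 for 10. The median of the mean of both arrays was -0.12. In the limma fit (normexp and loess, mean of both arrays against 0, Benjamini-Hochberg adjustment over 7290 clones) 3 clones of the list fell, against 2.98% of all clones called lower and 3.73% called in either direction. The count of 3 in 100 is close to that background. At an unadjusted p under 0.05 the fit had 13 clones of the list, 10 of them lower, against 14.1% of all clones. The fitted median was -0.16 over the list and 0.01 over all clones, with a median SE of 0.28.

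The 3 clones that fell were NL_3_67, NL_3_50 and NL_3_53. NL_3_67 had stress and control intensities of 1752 and 4937 on the mild array and 3717 and 9266 on the moderate array, and M of -0.55 and -0.81 there. Its fitted log2 ratio was -1.03 (SE 0.28, limma adjusted p = 0.0127), lower on 2 of 2 arrays. NL_3_50 had M of -0.64 and -0.45 and a fitted value of -0.98 (SE 0.28, limma adjusted p = 0.0205), and NL_3_53 had -0.41 and -0.45 and -0.95 (SE 0.28, limma adjusted p = 0.025). Without background correction none of the 3 passed (-0.77, -0.67 and -0.52 with loess).

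The call rests on 2 arrays, with 1 residual degree of freedom per clone. limma added 275 prior degrees of freedom from all clones, so the SE of 0.28 is mostly a pooled spread. The 2 arrays share the control plot, and their M correlated at 0.14 over all clones. The 3 clones lie in print row 10, column 2, where 16 of 161 tested clones were called lower (9.94%), 10 of them among the 47 NL_3 clones. In row 10, column 4, 0 of 48 tested NL_3 clones were called lower, and 8 of these 48 are listed. The part of position and name in the calls was not tested. The mild file of day 75 gives no matching print positions, so the fit could not be repeated with print-tip loess, and print blocks could be taken into account on the moderate array alone.

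**Figure D5:**
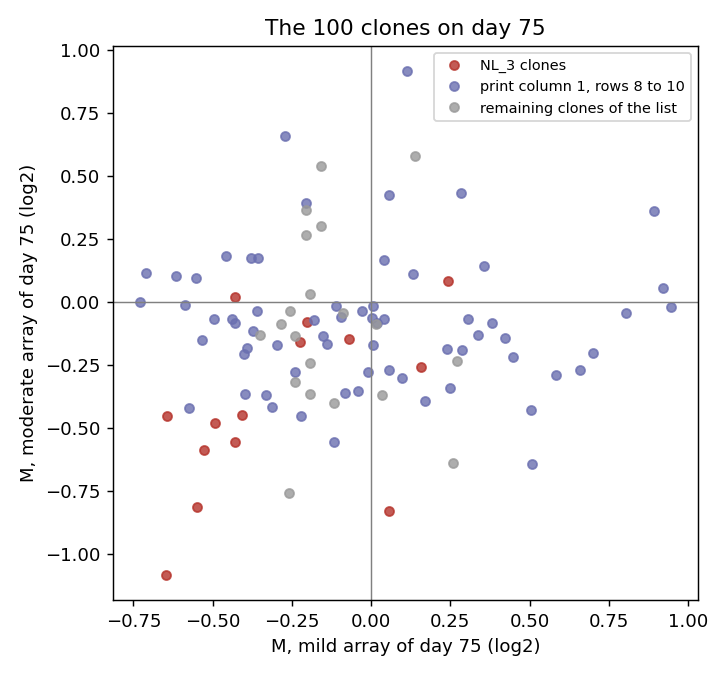
M of each of the 100 clones on the mild (x axis) and moderate (y axis) arrays of day 75, which had no part in choosing them. NL_3 clones (red) lie below 0 on both arrays for 10 of 14, clones of print column 1, rows 8 to 10 (blue) for 26 of 66, and the remaining clones (grey) for 10 of 20.

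The lowest clones of the list on day 75 were NL_3_48, with M of -0.65 under mild and -1.08 under moderate stress, then NL_3_67, NL_3_69 (-0.53 and -0.58), NL_3_50 and MK_PG6_B02 (-0.26 and -0.76). NL_3_48 was not called (fitted -0.85, SE 0.28, limma adjusted p = 0.0653). The highest were NL_18_72, with 0.89 and 0.36, NL52_C11 (0.11 and 0.92), NL_16_3 (0.92 and 0.06), NL_16_49 (0.95 and -0.02) and NL_8_53 (0.80 and -0.04). For 4 of these 5 clones 1 of the arrays was near 0, so their high means rest on the other array. Of the 66 clones of print column 1, rows 8 to 10, the median of the day 75 mean was -0.08, against -0.41 for the 14 NL_3 clones.

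Differences between stress levels on days 52 to 71 asked whether the clones followed the depth of the drought after day 45, and what the arrays of a day have in common, such as dye or control RNA, drops out of them. The list was chosen with 3-level means of these days, so the differences were open to a test. No clone of the list and none of the 7296 clones passed in the limma fit (0% called) for severe minus mild, moderate minus mild or severe minus moderate stress, with smallest adjusted p-values of 0.675, 0.784 and 0.633. At an unadjusted p under 0.05 there were 7, 7 and 12 clones of the list, against 6.70%, 6.32% and 7.11% of all clones. The median difference over the list was -0.05 for severe minus mild (from -0.67 to 0.62), -0.08 for moderate minus mild (from -0.65 to 0.55) and -0.02 for severe minus moderate stress (from -0.77 to 0.76). The median SE of a listed clone was 0.21, and none of these differences, up to the widest, could be told from 0. Of the clones with the largest ranges on day 45, NL_9_75 had its lowest value under severe stress on day 71 but under mild stress on day 67, so its order of levels was not kept.

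In the authors' deposited table, which holds log2 values centred per spot over the days of a level, 97 of the clones could be matched. Their medians on day 45 were -0.78, -0.30 and -0.40 under mild, moderate and severe stress, and 78 lay below 0 at all 3 levels, against 11.3% of 6474 clones. These columns match the arrays that chose the list, so their low values largely follow from the choice. The medians of the table's columns ran from -0.14 to 0.14 over all clones. The severe column of day 75, for which no scanner file was used here, had a median of 0.58 over the listed clones, with 14 of 97 below 0, against 44.5% of all clones. At all 3 levels of day 75, 5 of the 97 lay below 0, against 13.0% of all clones. Since each spot is centred over the days, low values on day 45 raise the other days of a level. The table's normalization before centring stays unknown.

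Clones outside the list that most resembled its mean profile over 21 arrays were MK_PG11_C09 (Pearson r 0.84), MK_PG7_A07 (0.84), MK_PG7_A09 (0.82), MK_PG6_E05 (0.79) and NL_12_20 (0.79). The first 4 were printed in row 11, columns 1 and 2, and NL_12_20 in row 8, column 1. MK_PG7_A09 had M of -2.01, -0.70 and -0.93 under mild, moderate and severe stress on day 45. It was of the kept ranks, but day 45 was not the day of its largest 3-level mean. Arrays share depth, print layout and control plots, so these correlations are a description.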

How the data were processed

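Spot intensities and local backgrounds, on a linear scale and not normalized, were deposited by the authors for 23 arrays: 21 as QuantArray output, per the file headers, and 2 (mild and moderate, day 75) as short tables. The authors' deposited table of log2 values covers 24 arrays and was used only as a description. The image analysis steps before that, and the table's normalization, are not given in the sources used here. Of the severe array of day 75 only that column was used. No table column was left out.

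M was computed as stated above. The tests used ratios after normexp background correction at an offset of 50 and a single loess fit per array (span 0.3, 4 iterations), to which control, empty and ignored spots did not contribute; duplicates were averaged and arrays were not scaled to each other. limma 3.58.1 (lmFit, eBayes) in R 4.3.3 tested the mean of the day 75 arrays against 0, and level differences over days 52 to 71 with day as a fixed factor, over all clones, adjusted by Benjamini-Hochberg (threshold 0.05). Both tests were run on simulated ratios first. The p-values of the level differences measure the spread between arrays of the same plots over days, not between plots of a level. Those of day 75 rest on the difference between the mild and the moderate array, pooled over clones. Level and plot cannot be told apart in that difference. Tables were made with Python 3.11.15 and pandas 2.3.3, figures with matplotlib 3.10.9, and the data.table package (version 1.17.8) was used for input in R. Day 75 values were matched to clones by name (mild) and by spot position (moderate).

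Alternatives were median centring, loess without background correction, print-tip loess, clone set medians, a filter on brightness, subtracted background, no brightness filter, leaving out days, quantification sessions and a random day block. Block medians, the exchange of 2 moderate arrays and the mild array of day 45 divided by 80 were added after seeing the data. The clones and the list were chosen with earlier results of these data known. Named clones followed fixed rules: the 15 highest minima on day 45, those at the edge of the list, the extremes on day 75, on days 52 to 71, in brightness and in range over levels, those called, and the 5 most alike outside the list; exceptions are named as such.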

Additional observations from a re-analysis of the deposited data

Results flagged for a closer look

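Arrays of one level on the days after day 45 were searched for a value far from the others, in 48 groups made of the list's median and its first 15 clones at each level. Chance alone sets apart about 1 group in 20, and 3 values were found, all on day 71. Under mild stress the median M of the 100 clones was -0.52 on day 71, while the other 6 arrays lay between -0.26 and -0.12. NL_16_17 was at -1.17 on the mild array of day 71, with the nearest other mild array at -0.49. NL_3_44 was at -1.42 on the severe array of day 71, with the nearest other severe array at -0.44. With normexp and loess the 3-level median of day 71 was -0.14.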

How the results depend on the processing

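The list and its size depended on the processing, and most where print blocks were taken into account. Of the 100 clones, 88 would have been chosen with background subtracted and 77 with no brightness filter. With normexp and loess 51 would have been chosen, with loess alone 58 and with clone set medians subtracted 39. Subtracting block medians kept 19, print-tip loess after normexp 16 and print-tip loess alone 11. The median of day 45 (-0.80) was -0.17 with print-tip loess and -0.30 with block medians subtracted. On days 52, 55, 59, 71 and 75 normexp with loess gave medians of 0.0024, -0.094, -0.12, -0.14 and -0.16. Print-tip loess gave -0.15, 0.091, 0.048, -0.086 and 0.13 for days 55, 59, 63, 67 and 71. Subtracting clone set medians gave -0.14, -0.17, -0.068 and -0.30 for days 55, 59, 63 and 71, and subtracting block medians gave 0.022 and 0.030 for days 59 and 63. On day 75 the mild array alone gave -0.15 and the moderate array alone -0.13. The day 75 test called 272 clones, 3 of them listed, against 114 with median centring, 129 without background correction and 87 over the brightness ranks alone, with 0 listed clones each (3, 10 and 10 listed clones at an unadjusted p under 0.05). The day 75 test was not run with print-tip loess, since the mild array lacks print positions. Level differences called 0 clones in the limma fits under all alternatives except 1 clone, not listed, for severe minus mild in the second quantification session. At an unadjusted p under 0.05 they ranged from 296 to 642 clones for severe minus mild, 177 to 826 for moderate minus mild and 184 to 1182 for severe minus moderate. Causes were not tested. With day as a random block in place of a fixed factor, the level differences again called 0 clones.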
